A study of Oryctolagus cuniculus with 14 samples.

Results

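The 100 most abundant genes of the naive rabbit cornea were followed into corneas taken 4 weeks after exposure to the vapor of sulfur mustard, a blistering agent that alkylates DNA and proteins. Members were the 100 gene IDs, of 23669 in the count files, with the highest median CPM (a gene's count scaled to a library total of 1000000) over the 4 naive libraries. RNA-seq had been done on 14 corneas of New Zealand White rabbits: 5 from exposed eyes scored as clinically impaired, 5 from exposed eyes scored as clinically non-impaired, and 4 from naive eyes. The labels name no genotype, age or vapor dose, and do not say what clinical signs were scored or whether the eyes of a group belonged to different rabbits. P-values therefore reflect only how far these samples spread, and that spread may be technical.

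The cornea is the transparent front of the eye, made of a stratified epithelium, a collagen-rich stroma kept by keratocytes, and an inner endothelium. Differentiated tissues devote much of their messenger RNA to a small set of genes, usually those for structural proteins, tissue-specific enzymes and the translation machinery. Sulfur mustard can leave a late corneal injury with inflammation, vessel ingrowth and epithelial defects. A sequencing library divides its reads among all genes, so a gain of share by some genes is matched by a loss of share in others. In whole corneas, fewer cells of a type and less RNA per cell cannot be told apart.

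The deposited files do not pair the Ensembl rabbit IDs with gene names, and 0 of the IDs were found in the RefSeq gene table used here. Roles, gene families, cell type markers and sequences of the members are therefore not described, and the label of the tissue was not checked against markers. Each member is called by its rank in naive corneas, from rank 1 (most abundant) to rank 100. Gene lengths were not used here, so the rank is that of the counts and not of the number of transcripts. Libraries held 12002876 to 17488019 counts, and the lowest count of any member in any library was 3470, so counting error was small beside the spread between corneas. All 100 members were among the 10048 genes with enough counts to be tested. Several libraries stood apart: impaired 4 had the lowest member share of all, non-impaired 5 the highest, and impaired 1, impaired 3 and non-impaired 1 were high in a set of 5 members described further on.

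The members held between 32.1% and 41.0% of a library's counts, and less in impaired corneas than in the other groups. Their share was 34.5%, 35.8%, 35.7%, 32.1% and 36.2% in impaired 1 to 5. In non-impaired 1 to 5 it was 39.1%, 39.2%, 38.9%, 39.1% and 41.0%. The 4 naive libraries, which chose the members, had 38.4%, 39.4%, 38.5% and 38.3%. Every impaired cornea thus lay below every other cornea, while the non-impaired and naive ranges overlapped. The mean share was 34.9% ± 1.69 for impaired (SD, n = 5), 39.5% ± 0.85 for non-impaired (SD, n = 5) and 38.6% ± 0.51 for naive libraries (SD, n = 4). Between the exposed groups the difference was -4.60 percentage points, and it lay between -4.93 and -3.90 when any 1 library was left out, smallest without impaired 4. The sum over members is a description and carries no test, since the members were chosen on the naive libraries.

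**Figure D1:**
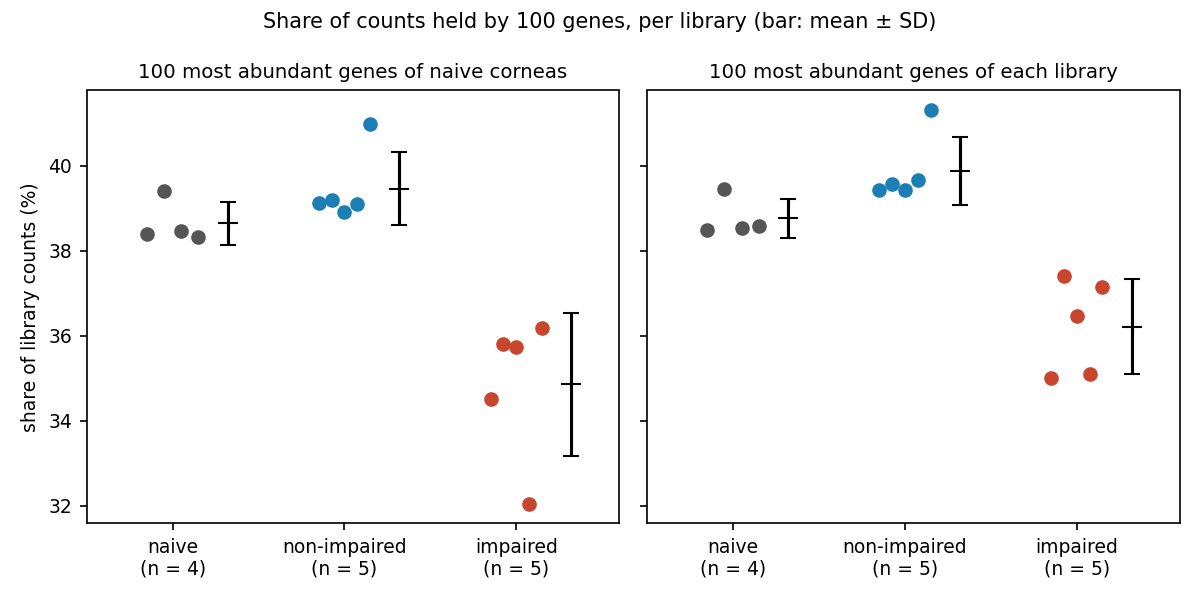
Share of each library's counts (%) held by the 100 most abundant genes of naive corneas (left) and by each library's own 100 most abundant genes (right), with 1 point per library and the mean ± SD beside each group. In both panels the 5 impaired corneas lie below all others, and in the left panel they span 32.1% to 36.2%.

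A measure that does not use the membership rule is the share of each library's own 100 most abundant genes, and it was also lowest in impaired corneas. Impaired libraries had 36.2% ± 1.12 (SD, n = 5), non-impaired 39.9% ± 0.80 (SD, n = 5) and naive 38.8% ± 0.46 (SD, n = 4). The difference of impaired from non-impaired was -3.67 percentage points (exact permutation test, two-sided, p = 0.00794, the smallest p these groups allow; adjusted p = 0.0238 over 3 tests). From naive corneas it was -2.54 points (exact permutation test, p = 0.0159, also the smallest possible; adjusted p = 0.0238). No impaired library overlapped another group. Non-impaired exceeded naive by 1.12 points (exact permutation test, p = 0.0476, adjusted p = 0.0476), and by 0.77 points without non-impaired 5 (exact permutation test, adjusted p = 0.0857). It missed the threshold without any 1 non-impaired library and without naive 1, 3 or 4. That excess rested on the rank 1 gene: with the most abundant gene taken out of both the list and the total, the difference was -0.24 points (exact permutation test, adjusted p = 0.540).

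Between the exposed groups, the lower share in impaired corneas lay in the upper 25 ranks. Rank 1 held 7.03% ± 0.12 of counts in non-impaired (SD, n = 5) and 5.81% ± 0.36 in impaired corneas (SD, n = 5), a difference of -1.22 percentage points. Ranks 2 to 10 differed by -2.26 points (9.07% ± 0.44 in impaired against 11.3% ± 0.39 in non-impaired) and ranks 11 to 25 by -1.05 points (8.01% ± 0.57 against 9.06% ± 0.57). For ranks 26 to 50 and 51 to 100 the differences were -0.08 and 0.01 points, within the spread of either group. Taken member by member, 72 had a lower and 28 a higher mean share in the impaired group, and these differences from the non-impaired group summed to -5.72 and 1.12 points. The 10 members with the largest losses (ranks 1, 5, 8, 6, 7, 3, 9, 17, 10 and 19) summed to -3.58 points. From naive corneas, impaired ones differed by 0.88 points at rank 1, -2.37 in ranks 2 to 10 and -1.57 in ranks 11 to 25. They also differed by -0.44 points in ranks 26 to 50 and -0.29 in ranks 51 to 100.

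Compared with non-impaired corneas, the counts that the members did not hold in impaired corneas were spread over less abundant genes. The 400 genes that follow the members in naive rank held 0.88 points more in impaired than in non-impaired libraries, those from there to rank 2000 held 1.25 points more, and all ranks above 2000 held 2.46 points more. From naive corneas, impaired ones differed in the same bands by -0.16, 0.51 and 3.43 points. The first of these bands held 19.1% in naive, 18.1% in non-impaired and 18.9% in impaired corneas. The last band took 22.3%, 21.3%, 21.7%, 25.99% and 21.3% in impaired 1 to 5, against 19.3% to 20.4% in non-impaired and 18.9% to 19.2% in naive corneas. Impaired 4, with the lowest member share, had the highest share in this band, and the other 4 impaired corneas also lay above all non-impaired and naive corneas.

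**Figure D2:**
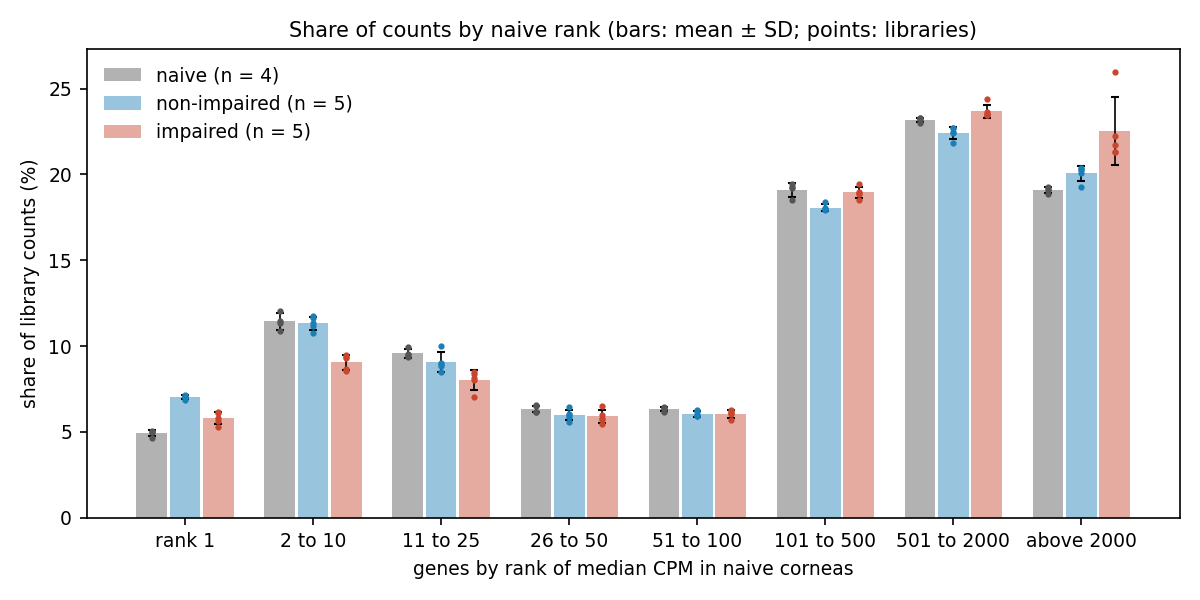
Share of library counts (%) by rank of median CPM in naive corneas, as bars of the group mean with SD and 1 point per library. Bars of impaired corneas are below those of non-impaired corneas up to rank 25 and above them outside the 100 members, most of all above rank 2000 (22.5% against 20.1%).

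Impaired and non-impaired corneas took no part in the choice of the members, so this comparison was tested. It asks what separates clinically affected from clinically spared eyes after exposure. Of the 100 members, 36 differed (edgeR quasi-likelihood test over all tested genes, Benjamini-Hochberg adjusted p below 0.05), close to the 32.7% called among all genes. Lower in impaired corneas were 27 members, where 14.4% of all genes were called lower, and higher were 9, where 18.4% of all genes were called higher. The median log2 fold change, impaired over non-impaired, was -0.14 among the members and 0.00 among all tested genes. It was 0.03 in the 100 genes that come next in naive rank, of which 15 were called lower and 27 higher. Differences were small: only 6 of the 36 called members reached 1.5-fold, 3 in each direction, and 1 reached 2-fold. At 1.5-fold or more, 16.3% of all genes were called, and 13 of the 100 genes next in naive rank. Regardless of sign, the median log2 fold change was 0.20 in the members, 0.21 in these next 100 and 0.30 in all tested genes. A small median shift was thus not particular to the members, though fewer of them reached 1.5-fold. In 25 members all libraries of one exposed group lay to one side of the other, 19 of them lower and 6 higher in impaired corneas (7.16% and 11.8% of all genes).

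The count in each direction depended on the scale against which a change was read. With library sizes summed only over genes outside the 100, 44 members were lower and 6 higher in impaired corneas. Of all genes, 21.1% were then called lower and 13.2% higher. The median of all genes moved to -0.11 and that of the members to -0.25. Without impaired 1 and naive 4, an alternative added once the values were known, 14 members were higher. Leaving out any 1 library gave 20 to 28 lower and 6 to 9 higher members. The share of all genes called was not computed for refits that left out libraries, so these counts have no background beside them.

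**Figure D3:**
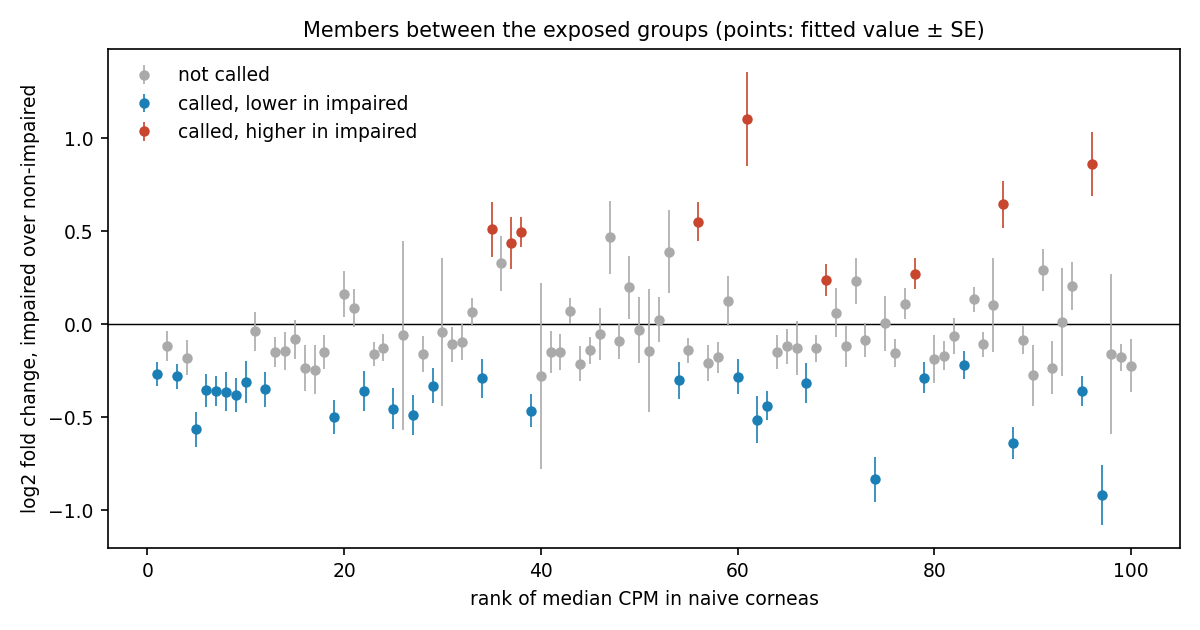
Fitted log2 fold change, impaired over non-impaired, with its SE for each of the 100 members against rank of median CPM in naive corneas. Colours mark the 27 members called lower and the 9 called higher by edgeR, and ranks 1 to 25 hold 12 of the lower and 0 of the higher calls.

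Among the 10 most abundant genes, 8 were called lower in the impaired group than in the non-impaired group and 0 higher. Over all genes, 14.4% were called lower and 18.4% higher. The 8 include rank 10, whose call was lost in 15 of 23 alternatives. The rank 1 gene, the most abundant in all 3 groups, had 56526, 61293, 58133, 52942 and 61644 CPM in impaired 1 to 5. In non-impaired 1 to 5 it had 68342, 70438, 70303, 70586 and 71637 CPM, and in naive 1 to 4 it had 46686, 50419, 50002 and 50040 CPM. The 3 groups did not overlap, with naive lowest and non-impaired highest. Its log2 fold change between the exposed groups was -0.27 (SE 0.06, edgeR adjusted p = 0.00691).

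The rank 5 gene showed the largest difference in the top 10. It had 8650, 7984, 7664, 7546 and 7949 CPM in impaired corneas and 9819, 12445, 11186, 12414 and 13245 CPM in non-impaired corneas. Naive corneas had 13226, 14208, 12610 and 10676 CPM. Non-impaired and naive libraries overlapped and all impaired libraries lay below both (log2 fold change between the exposed groups -0.57, SE 0.09, edgeR adjusted p = 0.00117).

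Ranks 6 and 7 had nearly the same values in every library. Rank 6 had 8315 to 11371 CPM in impaired, 12297 to 13482 in non-impaired and 11242 to 12151 in naive corneas, and rank 7 had 8488 to 10743, 11755 to 13074 and 10873 to 11757 CPM. Both had a log2 fold change of -0.36 between the exposed groups (edgeR adjusted p = 0.00841 for rank 6 and 0.00441 for rank 7). How the counting treated reads shared by near-identical genes was not stated. Rank 9 differed by -0.38, with 6565 to 8657 CPM in impaired against 9456 to 10686 CPM in non-impaired corneas. Rank 3 differed by -0.28, with 10485 to 13000 against 13732 to 15186 CPM. In both, the exposed groups did not overlap (edgeR adjusted p = 0.00664 and 0.00671).

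The rank 8 gene was the second most abundant gene of non-impaired corneas. It had 14492, 15758, 16664, 18459 and 15617 CPM in non-impaired, 10250, 13246, 12640, 13336 and 12936 CPM in impaired, and 8967, 10178, 10474 and 10876 CPM in naive corneas. All non-impaired libraries lay above all others, and impaired 1 lay within the naive range (log2 fold change between the exposed groups -0.36, SE 0.11, edgeR adjusted p = 0.0196). Rank 10 passed narrowly (-0.31, SE 0.11, edgeR adjusted p = 0.0465, with overlapping libraries), and its call was lost in 15 of 23 alternatives (adjusted p from 0.00901 to 0.116). With no library removed, it was lost with DESeq2 size factors, with no filter on low counts and with limma voom. It was also lost in the fit on the exposed groups alone and without both impaired 1 and naive 4. The single libraries left out in the others were impaired 1, 3, 4 and 5, non-impaired 1, 2 and 5, and naive 1, 2 and 3. Ranks 2 and 4 had log2 fold changes of -0.12 and -0.18 and did not pass (edgeR adjusted p = 0.288 and 0.158).

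Further down the list, 4 members were most reduced in impaired against non-impaired corneas: ranks 97, 74, 88 and 5. The rank 97 gene, ENSOCUG00000000280, had 422, 273, 396, 269 and 335 CPM in impaired and 572, 802, 670, 544 and 602 CPM in non-impaired corneas. Naive 1 to 4 had 916, 952, 948 and 528 CPM. The exposed groups did not overlap, and naive 4 lay below all non-impaired and above all impaired libraries (log2 fold change between the exposed groups -0.92, SE 0.16, edgeR adjusted p = 0.00162).

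The rank 74 gene, ENSOCUG00000000907, had 744, 668, 672, 511 and 471 CPM in impaired corneas. It had 986, 1163, 1115, 1172 and 1033 CPM in non-impaired and 1277, 1402, 1208 and 957 CPM in naive corneas. Impaired libraries lay below all others, and non-impaired and naive libraries overlapped (log2 fold change -0.83, SE 0.12, edgeR adjusted p = 0.000698). Rank 88 had 426 to 583 CPM in impaired, 734 to 883 CPM in non-impaired and 866 to 1111 CPM in naive corneas. Here too the exposed groups did not overlap (log2 fold change -0.64, SE 0.08, edgeR adjusted p = 0.000499).

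Of the 9 members that were higher in impaired corneas, all had ranks from 35 on, and ranks 61, 96, 87 and 56 differed most. The rank 61 gene, ENSOCUG00000006405, was the only member with a 2-fold difference between the exposed groups. It had 2208, 4050, 3022, 3203 and 3503 CPM in impaired and 1471, 1297, 1454, 1769 and 1540 CPM in non-impaired corneas. Naive 1 to 4 had 1341, 924, 1526 and 2755 CPM. All impaired libraries lay above all non-impaired ones, and naive 4 reached into the impaired range (log2 fold change between the exposed groups 1.11, SE 0.25, edgeR adjusted p = 0.00527).

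The rank 96 gene, ENSOCUG00000010443, had 1247, 2188, 2104, 1584 and 1959 CPM in impaired corneas. It had 901, 958, 1117, 1179 and 893 CPM in non-impaired and 983, 884, 869 and 1358 CPM in naive corneas. The exposed groups did not overlap, and naive 4 lay above impaired 1 (log2 fold change 0.86, SE 0.17, edgeR adjusted p = 0.00290). Rank 87 had 890 to 1349 CPM in impaired and 691 to 886 CPM in non-impaired corneas, which did not overlap, while naive corneas at 908 to 1160 CPM overlapped the impaired ones (log2 fold change 0.65, SE 0.13, edgeR adjusted p = 0.00249). Rank 56 had 1799 to 2298 CPM in impaired and 1331 to 1464 CPM in non-impaired corneas, with naive corneas at 1420 to 1975 CPM (log2 fold change 0.55, SE 0.10, edgeR adjusted p = 0.00203). These 4 and the 4 most reduced members kept their call and direction in all 23 alternatives, with adjusted p of at most 0.0155.

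Against naive corneas the members are described with no weight on the test, because the naive libraries chose them and both comparisons use the same 4 naive libraries. In impaired corneas 38 members were called lower and 16 higher, where 15.8% and 19.8% of all genes were called (edgeR, adjusted p below 0.05). In non-impaired corneas 15 were called lower and 11 higher, where 9.99% and 12.8% of all genes were called. Impaired and naive libraries did not overlap in 38 lower and 8 higher members (11.3% and 12.5% of all genes). For non-impaired against naive these were 21 and 10 (14.5% and 11.6%). For non-impaired corneas the count of 26 calls fell to 16 without naive 3 (6 of them higher) and to 17 without non-impaired 4 (8 of them lower), and was 35 without impaired 1. For impaired corneas the count of 54 lay between 43 (without naive 1) and 63 (without impaired 1). The share of all genes called in these refits was not computed, so whether the changes concern the members in particular is not known. At 1.5-fold or more, 20 members were called for impaired and 5 for non-impaired corneas (21.4% and 13.3% of all genes). For non-impaired against naive with limma voom, 26 were called higher and 27 lower (19.5% and 17.5% of all genes). With no scaling beyond the column totals, 9 were called higher and 24 lower there (10.5% and 13.6% of all genes). The median of all genes was then -0.07.

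The members with the largest excess over naive corneas were ranks 50, 37, 17 and 20 in impaired corneas and ranks 50, 17, 8 and 1 in non-impaired corneas, among those whose libraries did not overlap. The rank 50 gene had 4064, 5035, 4402, 6340 and 3197 CPM in impaired, 4843, 4538, 5462, 5244 and 3819 CPM in non-impaired, and 2047, 1661, 1688 and 2256 CPM in naive corneas. All exposed libraries lay above all naive ones, and the exposed groups overlapped. Its level was 2.54 times the naive level in impaired and 2.602 times in non-impaired corneas, and it stood at ranks 20 and 21 there.

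The rank 17 gene had 11376, 12799, 8886, 10886 and 11624 CPM in impaired corneas and 11989, 11642, 15062, 11862 and 15719 CPM in non-impaired corneas. In naive corneas it had 7289, 5961, 6641 and 8059 CPM, below every exposed library. The fitted fold over naive was 1.67 for the impaired group and 1.98 for the non-impaired group, which overlapped (edgeR adjusted p = 0.168 between them). Rank 20 had 7152 to 9792 CPM in impaired and 6458 to 8916 CPM in non-impaired corneas, against 4803 to 6142 CPM in naive corneas. Rank 37 had 3487 to 4747 CPM in impaired, 2533 to 4281 CPM in non-impaired and 2067 to 2784 CPM in naive corneas. Between the exposed groups it was higher in impaired corneas, by 0.44 on the log2 scale (SE 0.14, edgeR adjusted p = 0.0266). That call was lost in 8 of 23 alternatives (adjusted p up to 0.0761), which left out impaired 1, 4 or 5 or non-impaired 1, 2, 3 or 5 or used library sizes without the members.

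The members furthest below naive corneas were ranks 90, 97, 49 and 30 in impaired corneas and ranks 49, 90, 21 and 15 in non-impaired corneas, again among those whose libraries did not overlap. Rank 30 was narrowly apart, with at most 2601 CPM in impaired against at least 2731 CPM in naive corneas. It was not called there (edgeR adjusted p = 0.0711) and belongs to the widely spread members described further on. The rank 49 gene had 1812, 2357, 1948 and 1932 CPM in naive corneas. It had 677, 974, 953, 532 and 1193 CPM in impaired and 715, 760, 764, 752 and 797 CPM in non-impaired corneas. Every exposed library was below every naive one, and the non-impaired values lay within the wider impaired range. Log2 fold changes from naive were -1.15 in impaired (SE 0.18) and -1.35 in non-impaired corneas (SE 0.18).

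The rank 90 gene had 974, 1043, 1103 and 612 CPM in naive, 449, 357, 354, 245 and 433 CPM in impaired, and 497, 358, 435, 529 and 404 CPM in non-impaired corneas. Naive 4 was the lowest naive library and still lay above all exposed ones (log2 fold changes from naive -1.28 in impaired and -1.01 in non-impaired corneas). Ranks 15 and 21 were reduced to a like degree in both exposed groups. Rank 15 had 7229 to 8954 CPM in naive, 3970 to 5421 CPM in impaired and 4421 to 6408 CPM in non-impaired corneas. Rank 21 had 5030 to 5529 CPM in naive, 2791 to 4003 CPM in impaired and 2815 to 3968 CPM in non-impaired corneas. Between the exposed groups neither passed (log2 fold changes -0.08 and 0.09, edgeR adjusted p = 0.586 and 0.540).

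A set of 5 members spread far more within the exposed groups than the rest, and did so together. They were ranks 26, 30, 40, 51 and 98, the members with a coefficient of variation above 40% in both exposed groups, a limit set after the values were seen. The rank 26 gene had 4662, 1312, 5823, 1220 and 1119 CPM in impaired 1 to 5. In non-impaired 1 to 5 it had 6416, 2360, 2525, 1060 and 2146 CPM, and in naive 1 to 4 it had 6865, 4800, 3688 and 4399 CPM. Impaired 1, impaired 3 and non-impaired 1 were high, at the naive level, and the other 7 exposed libraries lay below every naive library.

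The same 3 libraries were the highest exposed ones in the other 4 genes, and the other 7 were below all naive libraries in each. Rank 30 had 2601, 754, 2592, 995 and 782 CPM in impaired and 3024, 1510, 1372, 676 and 1272 CPM in non-impaired corneas, against 2731 to 3936 CPM in naive corneas. Rank 40 had 2183, 629, 3204, 588 and 667 CPM in impaired and 3618, 1412, 1693, 654 and 1306 CPM in non-impaired corneas, against 1796 to 3342 CPM in naive corneas. In both, impaired 1, impaired 3 and non-impaired 1 stood clear of the other 7 exposed libraries. Ranks 51 and 98 ranged from 641 to 2247 CPM and from 270 to 1338 CPM over the 10 exposed libraries, and from 1782 to 2877 and 718 to 1123 CPM over the naive ones.

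In these 5 genes the exposed group means were thus no guide to single corneas, and none passed between the exposed groups (edgeR adjusted p = 0.702 to 0.947). Together they held 1.22%, 0.39%, 1.47%, 0.37% and 0.36% of counts in impaired 1 to 5 and 1.66%, 0.71%, 0.72%, 0.35% and 0.64% in non-impaired 1 to 5, against 1.07% to 1.81% in naive corneas. Without them the members held 31.7% to 35.8% in impaired and 37.5% to 40.3% in non-impaired corneas, which still did not overlap. Among the 400 genes next in naive rank, 6 passed the same limit, and 5 of these were also highest in impaired 1, impaired 3 and non-impaired 1 within their groups. Whether the amount of a cell type or of peripheral tissue in a sample moved with these genes was not tested.

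**Figure D4:**
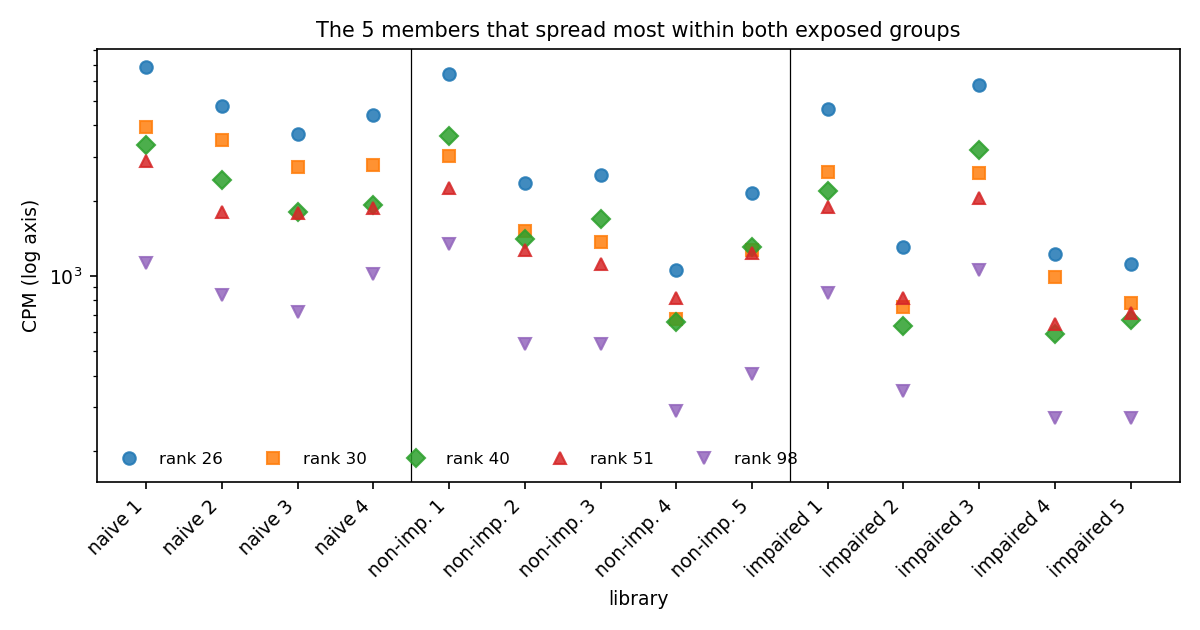
CPM (log axis) in each of the 14 libraries for the 5 members that spread most within both exposed groups, with vertical lines between naive, non-impaired and impaired corneas. All 5 are high in non-impaired 1, impaired 1 and impaired 3 and low in the other 7 exposed libraries.

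Spread between libraries of a group was smaller in the members than over all tested genes, but not smaller than in genes of nearby rank. Between libraries the median coefficient of variation of the members was 12.2% (impaired), 9.84% (non-impaired) and 9.72% (naive), against 20.05%, 13.6% and 14.7% over all tested genes. In the 100 genes next in naive rank it was 11.4%, 8.35% and 9.14%. It was under 10% for 33 members among impaired, 53 among non-impaired and 52 among naive libraries. Rank 1 had the smallest coefficient of any member in non-impaired corneas (1.70%). Beside the 5 genes above, 3 members exceeded 40% in a group: rank 61 in naive corneas (48.1%) and ranks 86 and 93 in non-impaired corneas (43.2% and 52.0%). The latter pair was high together in 2 non-impaired libraries: rank 86 had 820, 938, 1516, 1960 and 768 CPM and rank 93 had 579, 731, 1318, 1824 and 669 CPM in non-impaired 1 to 5. These were named after their values were seen. Neither passed between the exposed groups (edgeR adjusted p = 0.787 and 0.978).

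Most members stayed among the 100 most abundant genes after exposure. By group medians, 89 members were also in the 100 of non-impaired corneas and 82 in the 100 of impaired corneas, and 78 were in all 3 lists. Single libraries held 70 to 84 members in their own 100 in impaired, 86 to 89 in non-impaired and 91 to 96 in naive corneas, with the lowest in impaired 4. The naive libraries chose the members, so their overlap is favoured by the rule and is no measure of change after exposure. Of the 18 members absent from the impaired list, 17 had naive ranks above 50, and 12 were still within the first 150. Of the 11 absent from the non-impaired list, 10 had naive ranks above 50. The largest drops in impaired corneas were those of ranks 97, 98 and 90, to 433, 409 and 397. Rank 98 belongs to the 5 widely spread members, and its median hides a split. It had 853 and 1059 CPM in impaired 1 and 3, at the naive level, and 270 to 347 CPM in impaired 2, 4 and 5.

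The genes that took their places came mostly from just outside the list. Of the 18 genes that entered in impaired corneas, 14 had naive ranks up to 200, and of the 11 that entered in non-impaired corneas, 9 did. The others are named here after their values were seen. The gene of naive rank 3007 had 57.1, 58.3, 48.9 and 121 CPM in naive corneas. It had 1600, 2791, 2236, 6198 and 1397 CPM in impaired and 641, 1538, 2588, 1485 and 560 CPM in non-impaired corneas, and stood at ranks 41 and 55 there. The gene of naive rank 3486 had 43.3 to 79.6 CPM in naive, 989 to 3392 CPM in impaired and 815 to 1375 CPM in non-impaired corneas, which placed it at ranks 75 and 71. In both genes all exposed libraries lay far above all naive ones, the exposed groups overlapped, and impaired 4 was the highest library of all.

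A further pair entered in impaired corneas only. The gene of naive rank 369 had 632, 2455, 966, 1431 and 1862 CPM in impaired and 350 to 399 CPM in non-impaired corneas, with 244 to 1045 CPM in naive corneas, where naive 4 was highest. The gene of naive rank 849 had 563 to 1875 CPM in impaired, 357 to 816 CPM in non-impaired and 88.5 to 252 CPM in naive corneas. They reached ranks 59 and 78 in impaired corneas.

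**Figure D5:**
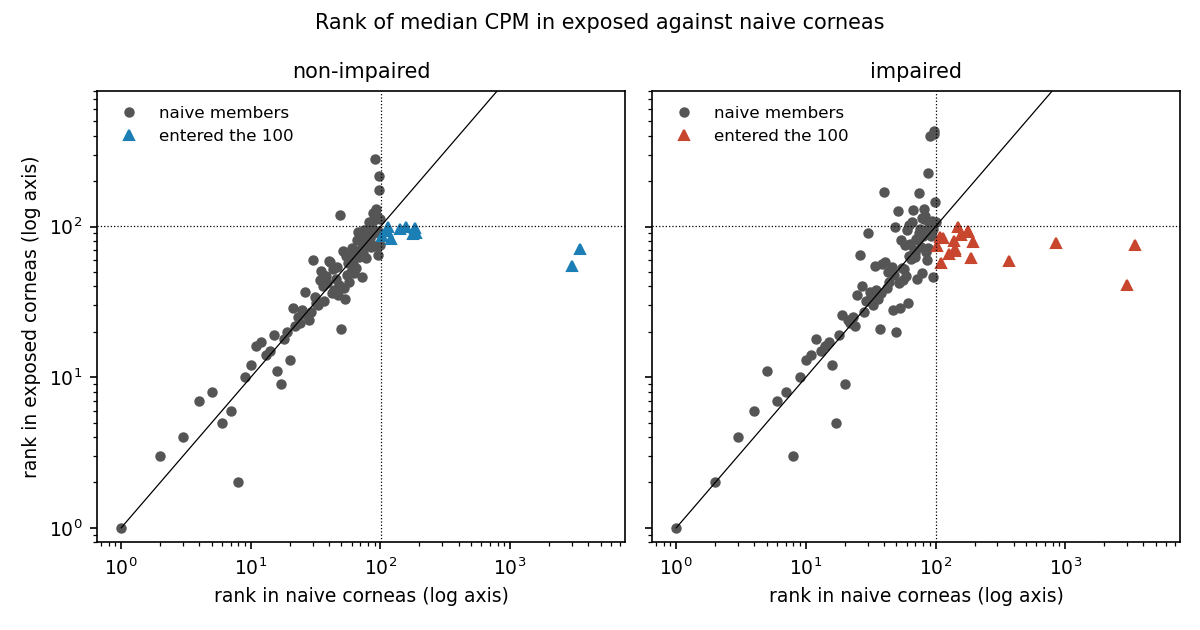
Rank of median CPM in non-impaired (left) and impaired corneas (right) against the rank in naive corneas, both on log axes, with circles for the 100 members and triangles for the 11 and 18 genes that entered the 100. The solid line marks equal ranks and dotted lines the limit of the list, and the triangles at the far right are the genes of naive ranks 3007 and 3486.

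The limit of the list fell in a dense part of the distribution. Median naive CPM was 932, 931 and 926 for ranks 98, 99 and 100 and 918, 913 and 899 for the 3 genes that follow. With each naive library left out of the choice in turn, 96 to 98 of the 100 genes were chosen again, and 92 were chosen when the median was taken over all 14 libraries.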

How the data were processed

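Corneas went into RNAlater and libraries were made from their total RNA with a TruSeq kit, per the labels' protocols. The authors deposited 1 file of raw read counts by gene for each library. The build is OryCun2.0 and the tools listed are TopHat2 2.1.0, Cufflinks 2.0.2, bcl2fastq 2.17 and DESeq, per the submitters' processing notes. Which program counted, whether by strand and on which annotation is not given in the sources used here, so overlapping, antisense or near-identical genes are uncertain. Libraries differed beyond sampling noise in every pair (lowest chi-square per degree of freedom 14.1 over 91 pairs).

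Members and alternatives were chosen with earlier results of these data known. CPM are counts over column totals. edgeR 4.0.16 in R 4.3.3 was fitted to all 14 libraries after its default filter (10048 genes, 99.96% of counts) with TMM factors of 0.924 to 1.06, robust quasi-likelihood and 11 residual degrees of freedom. Calls are at a Benjamini-Hochberg adjusted p below 0.05 over all genes tested, and SE come from the fold change and F statistic. Named members are ranks 1 to 10 and, per comparison and direction, the 4 with the largest log2 fold change, among called members between the exposed groups and among non-overlapping ones against naive. IDs are printed for 4 members. Replicate numbers only name libraries and the labels give no batch. Gene lists and cell type markers could not be applied without gene names. Alternatives were other scalings, filters, choices of members, DESeq2 1.42.0, limma 3.58.1 with voom, fits on 2 groups, a 1.5-fold minimum and leaving out each library. The fit was tested on simulated data.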

Additional observations from a re-analysis of the deposited data

Results flagged for a closer look

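Values of single libraries far from the rest of their group were looked for in the 2 shares and the 26 named members, 84 groups of values in all, of which 11 were found. Chance gives about 1 in 20 such groups. Naive 2 held the highest member share of its group, 39.4%, against 38.3% to 38.5% in the other naive libraries, and its own 100 genes held 39.4% against 38.5% to 38.6%. Non-impaired 5 likewise had a member share of 41.0% against 38.9% to 39.2%, and an own share of 41.3% against 39.4% to 39.7%. Rank 1 was lowest in naive 1, at 46686 CPM against 50002 to 50419 CPM. Rank 8 was lowest in impaired 1, at 10250 CPM against 12640 to 13336 CPM. Rank 15 stood at 8954 CPM in naive 2, above 7229 to 7483 CPM, and at 3970 CPM in impaired 4, below 5097 to 5421 CPM. Rank 21 was also lowest in impaired 4, at 2791 CPM against 3668 to 4003 CPM. Rank 37 was highest in non-impaired 4, at 4281 CPM against 2533 to 3006 CPM. Rank 97 was lowest in naive 4, at 528 CPM against 916 to 952 CPM.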

How the results depend on the processing

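No paired analysis was possible because the labels do not say which eyes came from the same rabbit. Between the exposed groups, the lower calls among members (27) rose to 44 with library sizes over genes outside the members. Lower calls over all genes rose there from 14.4% to 21.1%. Higher calls among members (9) became 14 without impaired 1 and naive 4, added after the data were seen. Requiring 1.5-fold left 6 calls (3 higher, 3 lower) between the exposed groups, 20 (9 higher, 11 lower) for impaired and 5 (3 higher, 2 lower) for non-impaired against naive. For non-impaired against naive, limma voom called 53 members (26 higher, 27 lower), column totals 24 lower, DESeq2 17 higher, fits on 2 groups 18 higher, and members by the median over all libraries 17 higher. Of all genes, limma voom called 37% there, against 22.8% in the main fit. Column totals called 13.6% of all genes lower (main 9.99%) and DESeq2 15.5% higher (main 12.8%). Leaving out 1 library gave 16 to 35 calls there (6 to 16 higher, 8 to 19 lower), 28 to 36 between the exposed groups and 43 to 63 for impaired against naive. The share of all genes called was not computed for any refit that left out libraries or for the fits on 2 groups. Library sizes over genes outside the members gave 11 higher and 49 lower calls for impaired against naive (main 16 and 38). Of all genes, 14.3% and 24.8% were then called higher and lower (main 19.8% and 15.8%). The difference in member share between non-impaired and naive, 0.81 points, became -0.58 without the most abundant gene in the total, and that of the own 100 genes became -0.24. The latter lay between 0.77 and 1.36 when a library was left out, and missed the threshold without any 1 non-impaired library and without naive 1, 3 or 4. Impaired against naive (-2.84 to -2.24) missed the threshold without naive 1, 3 or 4, where its p of 0.0357 is the smallest that 5 against 3 libraries allow (adjusted p = 0.0536). Among the named members, calls between the exposed groups were lost 23 times over the refits (15 for rank 10, 8 for rank 37) and gained 3 times. Losses and gains of calls against naive were not counted. In all comparisons, 0 fold changes of named members that passed the test changed sign. The difference in own share between non-impaired and naive, given above, had passed and did change sign without the most abundant gene. Values that did not pass changed sign in some refits, those of ranks 21, 30 and 50 between the exposed groups and of ranks 5, 61 and 96 for non-impaired against naive. Sampling depth limits none of these values.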
